A study of Homo sapiens with 18 samples.

Results

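The untreated shERG line was compared with the parental VCaP cells it was made from, using 6 of the 18 RNA-seq libraries of the study. VCaP is a metastatic prostate cancer cell line that responds to androgens and carries the TMPRSS2:ERG fusion, through which an androgen-responsive promoter drives the ETS transcription factor ERG. The 6 libraries were chosen by their labels. They are the 3 of shERG cells given vehicle (shERG-DMSO) and the 3 of parental cells given vehicle (DMSO), with neither doxycycline nor the ERG inhibitor PBITE-1 in any of them. The other 12 libraries are of shERG cells with doxycycline at 1 µg/mL (shERG-Dox, n = 3) and of parental cells with PBITE-1 at 50 µM for 4, 8 or 12 h (n = 3 each). The paper's methods give a serum-containing medium for VCaP cells and name none separately for the shERG line. The time at which either vehicle group was collected is not given in the sources used here.

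The engineered cells carry a stably integrated pLKO-Tet-on-puro vector with a short hairpin RNA against ERG that doxycycline switches on. They therefore differ from the parental cells by the vector and by the steps that established the line, as well as by the experiment in which they were grown and treated. These cannot be told apart in the comparison, and none of the 18 libraries is of the study's nontargeting hairpin line. The labels do not say whether the 3 samples of a group came from separate cultures, so p-values measure only the spread between these samples. In prostate cells, androgens drive luminal genes such as the kallikreins, and ERG binds many of the regulatory regions involved. Sublines of a cancer cell line are known to diverge in expression when they are engineered and passaged. After ERG, the results are ordered by function, from secreted and signaling products to androgen-responsive, growth, stress, and lineage genes.

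A gene's level is given as CPM, its counts per 1000000 counts of the library after TMM scaling over all 18 libraries, which is not corrected for gene length. Totals were 13223421 to 16202892 counts per library for shERG-DMSO and 14827453 to 17140075 for DMSO, and 3 counts corresponded to 0.190 to 0.233 and to 0.179 to 0.207 CPM. The common biological coefficient of variation was 0.0369 and 0.0474. Genes with at least 1 count numbered 15850 to 16049 in shERG-DMSO and 16317 to 16571 in DMSO, and 15849 to 15859 and 16201 to 16305 once every library was set to the smallest total. Library replicate 1 of shERG-DMSO stood apart at a small set of genes. It exceeded both other replicates by more than 1.5-fold at 19 of 10328 genes with a mean of at least 5 CPM, against 1 and 2 genes for replicates 2 and 3, and 11 of the 19 belong to the hypoxia and glycolysis list described below.

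ERG, the target of the hairpin, was not reduced in the untreated shERG line. Its level was 431, 419 and 407 CPM in the 3 shERG-DMSO libraries and 294, 304 and 312 CPM in the 3 DMSO libraries. The groups did not overlap, and ERG was higher in the shERG line by 0.45 on the log2 scale (SE 0.04, adjusted p = 6.09e-12). With doxycycline it was at 156, 157 and 149 CPM, below both untreated groups. A list of 10 genes was used for ERG targets, of which the study's text names TDRD1, PLAT, and PLA1A as such, and 9 could be tested. The Tudor domain gene TDRD1 (log2 fold change 0.36), the plasminogen activator PLAT (0.66), the homeobox gene DLX1 (0.23), TMPRSS2 (0.21), TRIM14 (0.17), and PLA1A (0.16) were higher, and ARHGDIB was lower, by 0.27 on the log2 scale. DLX1 did not pass without shERG-DMSO replicate 3 (0.18) or DMSO replicate 3 (0.20), nor PLA1A without DMSO replicate 2 (0.12). USP36 (0.08) and CAPN15 (0.03) did not pass the test, and MMP9 was too low to be tested. None of the 9 differed by more than 2-fold, and their median was 0.17, beside -0.00 for all genes tested.

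Across the transcriptome the differences were asymmetric, with most of the strongly different genes lower in the shERG line. Of 13145 genes tested, 603 (4.59%) were lower and 139 (1.06%) were higher in shERG-DMSO by more than 2-fold, that is 1 on the log2 scale, with an adjusted p below 0.05, which is what "called" means here. Lower genes made up 81.3% of the 742 called. With the limit on p alone, which is what "passed the test" means here, the numbers were near even, with 3284 lower (25.0%) and 3093 higher (23.5%). These shares over all genes tested are the background for the list counts below. The asymmetry was also present among abundant genes, where 46 called genes with at least 50 CPM in DMSO were lower and 9 with at least 50 CPM in shERG-DMSO were higher. A log2 fold change beyond 2 was reached by 142 of the lower and 17 of the higher genes. Called genes were mostly of low abundance, with a median of 3.90 CPM in DMSO for the lower and 3.22 CPM in shERG-DMSO for the higher genes, beside 25.4 CPM in DMSO for all genes tested. Among called genes, the 3 and 3 libraries did not overlap for 579 of the lower and 132 of the higher, beside 55.3% of all genes tested.

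**Figure D1:**
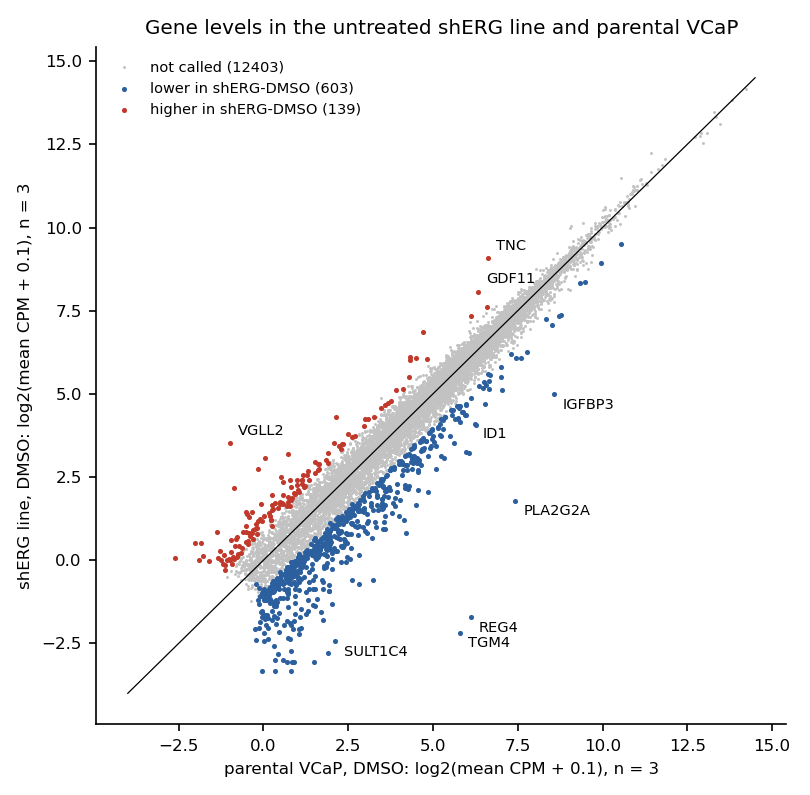
Each point is a gene, with its mean level in parental DMSO on the x axis and in shERG-DMSO on the y axis, both as log2(CPM + 0.1) with n = 3, and the line marks equal levels. The 603 genes called lower spread further from the line than the 139 called higher, with TGM4, REG4 and PLA2G2A lowest relative to their parental level.

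TGM4, REG4, and PLA2G2A, which encode secreted proteins, were among the genes with the largest differences. TGM4, a prostate-specific transglutaminase of seminal fluid (chr3:44874608-44914990, plus strand), was at 54.5, 59.0 and 52.2 CPM in DMSO and at 0.233, 0.126 and 0 CPM in shERG-DMSO, that is 3, 2 and 0 counts. Counted over the groups, the parental level was 474-fold higher (95% exact interval 203 to 1460, for counting error only). It was the only gene with at most 3 counts in every library of one line and at least 50 in every library of the other. REG4, a secreted lectin of the intestinal epithelium (chr1:119794018-119811660, minus strand), was at 65.9, 72.0 and 69.4 CPM in DMSO and at 0.233, 0.316 and 0.0703 CPM in shERG-DMSO, a 330-fold difference (173 to 722). PLA2G2A, the secreted group IIA phospholipase A2 (chr1:19975431-19980416, minus strand), was at 176, 176 and 166 CPM and at 2.88, 3.67 and 3.51 CPM (log2 fold change -5.67, SE 0.16, adjusted p = 5.27e-23). No library of one line came near the other line for these 3 genes, and in shERG-Dox TGM4 and REG4 were at or below 0.437 CPM and PLA2G2A was between 1.75 and 2.84 CPM. The promoters of TGM4 and REG4, the largest losses, are shown beside those of VGLL2, the largest gain, and TNC, the most abundant gained gene, because these genes mark the extremes of the comparison. Each runs from 250 bases before to 50 after the RefSeq start on GRCh38.p14 in the direction of transcription, with CpG dinucleotides in capitals.
TGM4 (chr3:44874358-44874657, plus strand): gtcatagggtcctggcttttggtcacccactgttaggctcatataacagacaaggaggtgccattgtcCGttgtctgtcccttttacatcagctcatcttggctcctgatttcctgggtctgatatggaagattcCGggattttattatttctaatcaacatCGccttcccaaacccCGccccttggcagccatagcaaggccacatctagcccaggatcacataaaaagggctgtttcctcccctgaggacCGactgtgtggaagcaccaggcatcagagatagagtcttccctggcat
REG4 (chr1:119811411-119811710, minus strand): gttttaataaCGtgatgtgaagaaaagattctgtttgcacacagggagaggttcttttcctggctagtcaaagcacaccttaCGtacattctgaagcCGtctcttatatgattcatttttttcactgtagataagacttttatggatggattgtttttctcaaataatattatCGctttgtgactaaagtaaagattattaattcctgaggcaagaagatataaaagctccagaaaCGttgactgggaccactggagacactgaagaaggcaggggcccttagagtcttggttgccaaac
VGLL2 (chr6:117265308-117265607, plus strand): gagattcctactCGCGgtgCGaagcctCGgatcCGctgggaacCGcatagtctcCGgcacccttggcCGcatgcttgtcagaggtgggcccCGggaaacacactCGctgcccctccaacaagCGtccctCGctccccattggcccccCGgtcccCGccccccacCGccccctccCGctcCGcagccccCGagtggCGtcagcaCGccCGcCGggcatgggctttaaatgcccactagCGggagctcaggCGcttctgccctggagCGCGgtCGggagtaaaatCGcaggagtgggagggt
TNC (chr9:115118108-115118407, minus strand): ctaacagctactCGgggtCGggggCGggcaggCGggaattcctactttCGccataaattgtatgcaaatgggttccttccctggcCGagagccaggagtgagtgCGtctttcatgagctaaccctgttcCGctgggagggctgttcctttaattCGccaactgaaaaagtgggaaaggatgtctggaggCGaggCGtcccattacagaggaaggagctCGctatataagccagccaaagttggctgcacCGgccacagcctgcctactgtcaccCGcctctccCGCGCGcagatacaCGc
The promoters of TGM4 and REG4 each hold 5 CpG, those of VGLL2 and TNC 28 and 18. Among other called genes, those of the lower PLA2G2A, ID1 and IGFBP3 hold 5, 22 and 36, and that of the higher ADGRG6 holds 36. Over all 27305 promoters in the RefSeq table the median was 14 CpG (quartiles 3 and 28), and 34.4% held 5 or fewer. The ETS core CCGGAA, sought on both strands, occurs once in the TGM4 window and in none of the other 3 shown. It also occurs once each in the windows of IGFBP3 and ADGRG6, and in neither PLA2G2A nor ID1. Of all promoters, 17.6% hold it.

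SPRY4, an inhibitor of receptor tyrosine kinase signaling (chr5:142310427-142326455), was at 9.04, 9.29 and 9.33 CPM in DMSO and at 0.700, 0.569 and 0.422 CPM in shERG-DMSO (log2 fold change -3.99, SE 0.33, adjusted p = 1.32e-11). IGFBP3, which binds insulin-like growth factors in the extracellular space (chr7:45912245-45921874), was the most abundant of the large losses, at 380, 380 and 384 CPM against 32.4, 29.4 and 32.7 CPM (log2 fold change -3.61, SE 0.06, adjusted p = 1.35e-29). Other strongly lower genes among the 12 protein-coding genes with the lowest fold changes, taken from called genes whose groups did not overlap and that had a mean of at least 50 counts in DMSO, were the sulfotransferase SULT1C4 (-5.83), the neural gene LIX1 (-5.65), FAXDC2 (-4.01), CRISPLD1 (-3.71), the cAMP phosphodiesterase PDE7B (-3.68), the transcription factor ATOH8 (-3.50), and the G-protein signaling regulator RGS4 (-3.35), where the value is the log2 fold change. In shERG-DMSO, SULT1C4 had 0, 4 and 0 counts and LIX1 0, 1 and 1, so their folds are wide, with 45.1-fold (17.3 to 167) and 77.9-fold (21.2 to 648) by counts. FAXDC2 overlaps CNOT8, and reads of overlapping genes may have been assigned to either. Among abundant genes, those called lower included the cholesterol enzyme HMGCS1, the protocadherin FAT1 (log2 fold change -1.15), the laminin chain LAMC1 (-1.03), and neuropeptide Y, NPY (-1.41). NPY was at 425, 467 and 414 CPM in DMSO and at 160, 172 and 161 CPM in shERG-DMSO.

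The genes gained in the shERG line included matrix, signaling, and developmental genes. VGLL2, a cofactor of TEAD transcription factors (chr6:117265558-117273565), was at 10.8, 12.3 and 11.1 CPM in shERG-DMSO and at 0.276, 0.512 and 0.419 CPM in DMSO (log2 fold change 4.74, SE 0.36, adjusted p = 2.30e-12). TNC, the matrix glycoprotein tenascin C (chr9:115019578-115118257), was the most abundant called higher gene, at 523, 547 and 543 CPM against 95.1, 99.96 and 100.3 CPM (log2 fold change 2.44, SE 0.04, adjusted p = 3.26e-29). ADGRG6, an adhesion G-protein-coupled receptor (chr6:142301854-142446266), was at 117, 118 and 115 CPM against 23.8, 25.6 and 28.3 CPM (log2 fold change 2.16, SE 0.07). The growth factor GDF11 (chr12:55743280-55757278, overlapping SARNP) was at 259, 267 and 283 CPM against 76.7, 81.8 and 79.9 CPM (log2 fold change 1.75, SE 0.05). These 4 genes were well separated between the lines, by more than 3-fold in every pair of libraries. With doxycycline, the levels were 6.25 to 6.70 CPM for VGLL2, 100 to 111 CPM for TNC, 40.9 to 43.3 CPM for ADGRG6, and 71.4 to 79.5 CPM for GDF11. Doxycycline and line comparisons share the shERG-DMSO libraries, so these levels are given side by side only.

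Other strongly higher genes, under the same limit of 50 counts in the higher group, were the synaptic gene LRRTM3 (log2 fold change 3.20, within the gene CTNNA3), the starch-digesting enzymes MGAM2 (3.19) and MGAM (1.84), the lactate transporter SLC16A3 (2.74), the sodium-calcium exchanger SLC8A1 (2.52), THAP2 (2.18), and the transcription factors RFX6 (1.78) and MEIS1 (1.72). LRRTM3 was at 6.92, 6.83 and 5.97 CPM in shERG-DMSO and at 1.31, 0.704 and 0.359 CPM in DMSO. MGAM and MGAM2 are related neighbors on chromosome 7 whose reads could be confused, and THAP2 overlaps ZFC3H1. TUNAR was also among the abundant genes called higher. It was at 187, 192 and 202 CPM against 95.2, 97.0 and 94.9 CPM, just past the limit at 1.01, and at 0.98 without replicate 3 of shERG-DMSO.

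**Figure D2:**
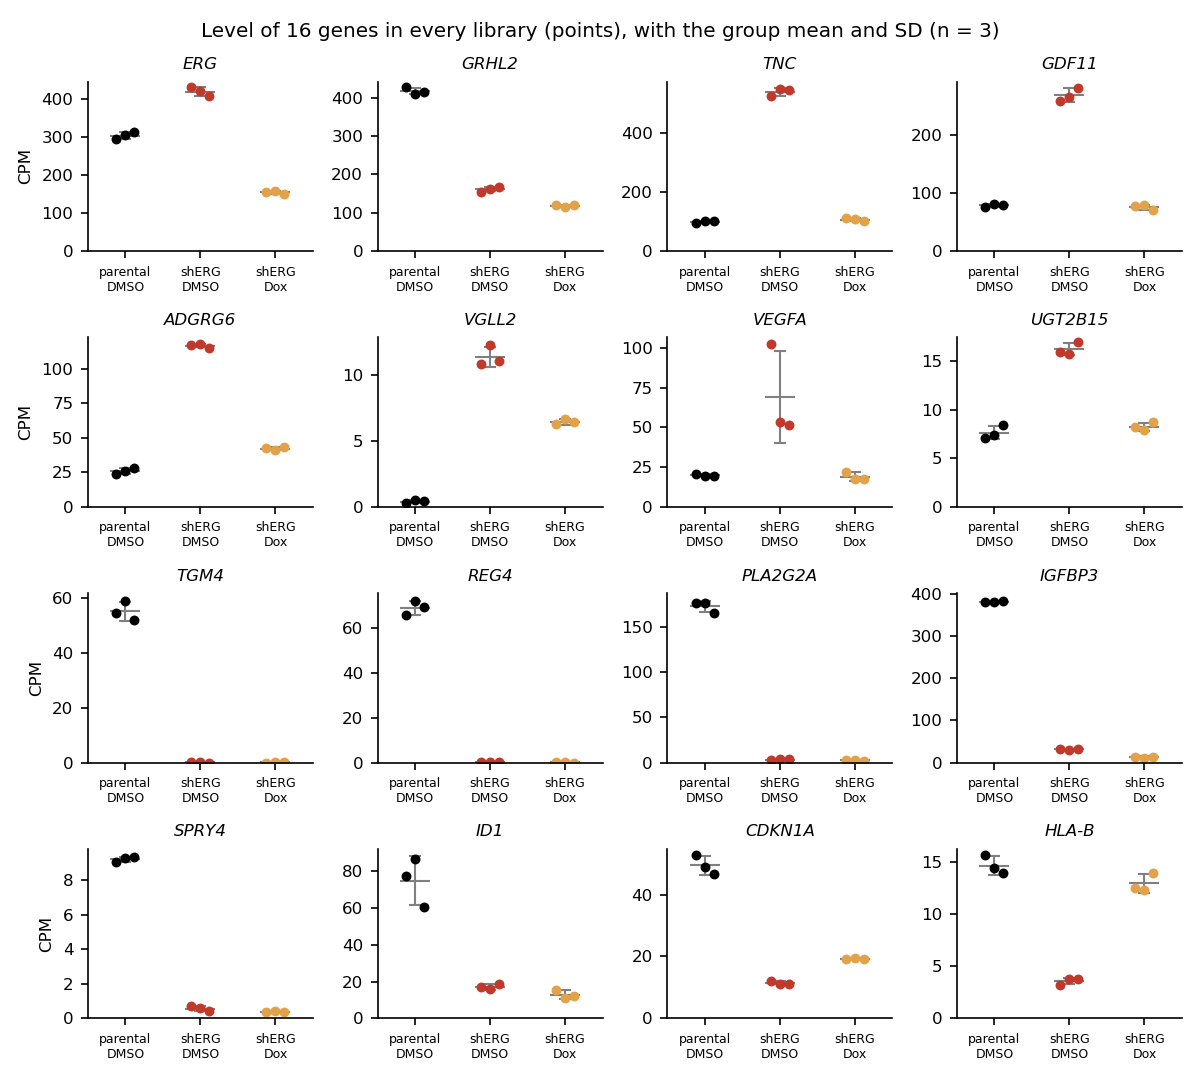
Level in CPM of 16 genes in each of 9 libraries, with points for libraries and the group mean and SD (n = 3) behind them, for parental DMSO, shERG-DMSO and shERG-Dox. TGM4, REG4, PLA2G2A, IGFBP3, SPRY4 and ID1 are low in both shERG groups, while TNC and GDF11 are high in shERG-DMSO alone of the 3 groups.

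Androgen-responsive genes moved in both directions. Of 30 tested members of this list, 9 were higher and 17 lower at an adjusted p under 0.05, with 4 called lower, none called higher, and a median of -0.31. The shares over all genes tested were 4.59% called lower and 1.06% called higher. The kallikreins KLK3, which encodes prostate-specific antigen (log2 fold change 0.50, SE 0.06), and KLK2 (0.24, SE 0.03), and the HSP90 cochaperone FKBP5 (0.43, SE 0.04) were higher. STEAP4, a metalloreductase, was at 4.59, 4.55 and 3.65 CPM against 19.1, 19.9 and 18.1 CPM (log2 fold change -2.16, SE 0.15). MAF (-1.15) and the protease ADAMTS1 (-1.08) were also called lower.

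Among 16 tested genes of androgen synthesis and inactivation, 4 were called higher, 2 lower, and the median was -0.12. The shares over all genes tested were 1.06% called higher and 4.59% called lower. All 4 higher genes encode UDP-glucuronosyltransferases, an enzyme family of which some members conjugate androgens for removal. UGT2B15 was at 15.9, 15.7 and 16.9 CPM in shERG-DMSO and at 7.11, 7.43 and 8.37 CPM in DMSO (log2 fold change 1.07, SE 0.12), and UGT2B17 at 4.74, 5.75 and 5.06 CPM against 1.73, 1.92 and 2.03 CPM (1.43, SE 0.23). UGT2B10 (2.86) and UGT2B11 (3.33) rested on at most 8 counts in any DMSO library, and by counts were 6.21-fold (3.42 to 12.2) and 7.64-fold (3.62 to 18.6) higher. The 4 genes are neighbors of similar sequence on chromosome 4, so that reads of one may be counted for another. The steroid hydroxylase CYP3A5 (-2.11) and the ketosteroid reductase AKR1C1 (-1.67) were called lower at under 2 CPM in each of the 6 libraries.

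Genes of TGF-beta and BMP signaling had the lowest median of the lists with at least 20 tested members. In this pathway, secreted ligands bind paired receptor kinases that phosphorylate SMAD proteins, and the ID genes are its classical BMP targets. Of 26 tested members, 21 were lower and 1 higher, 9 were called lower and none higher, and the median was -0.64. Over all genes tested, 25.0% passed the test as lower and 23.5% as higher, with 4.59% called lower and 1.06% called higher. Among ligands and extracellular regulators, TGFB2 was at 2.97, 2.82 and 2.21 CPM in DMSO and at 0.233, 0.695 and 0.422 CPM in shERG-DMSO (log2 fold change -2.54, SE 0.40). The BMP antagonist GREM1 (-1.33), the activin antagonist follistatin, FST (-2.24), and BMP7 (-0.45) were also lower. FST had 2, 3 and 1 counts in shERG-DMSO against 11, 11 and 13 in DMSO. Every receptor that passed the test was lower, namely the co-receptor TGFBR3 (-1.24), TGFBR1 (-0.55), BMPR2 (-0.50), ACVR2A (-0.47), BMPR1B (-0.46), and BMPR1A (-0.26). Both the BMP-pathway transducer SMAD9 (-1.52, SE 0.06) and the inhibitory SMAD6 (-1.79) were called lower, whereas SMAD3, a transducer of TGF-beta, was the single member that was higher (0.39, SE 0.10).
ID1, an inhibitor of basic helix-loop-helix factors, was at 77.5, 86.8 and 60.4 CPM in DMSO and at 17.0, 15.7 and 18.8 CPM in shERG-DMSO (log2 fold change -2.12, SE 0.12, adjusted p = 1.61e-15). ID3 was at 57.4, 57.2 and 52.7 CPM against 27.5, 25.0 and 22.4 CPM (-1.17), and ID2 at 102, 106 and 101 CPM against 49.1, 47.5 and 46.6 CPM (-1.12). All 4 ID genes passed the test in the same direction, ID4 with -0.94.

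Genes of hypoxia and glycolysis were higher in the untreated shERG line, to an extent that depended on 1 library. Of 31 tested members, 20 were higher and 2 lower, 5 were called higher and 1 lower, and the median was 0.39. Among all 13145 genes tested, 1.06% were called higher and 4.59% lower. VEGFA, the angiogenic growth factor, was at 103, 53.4 and 51.6 CPM in shERG-DMSO and at 20.6, 19.5 and 19.7 CPM in DMSO (log2 fold change 1.69, SE 0.17). P4HA1, a collagen prolyl hydroxylase subunit, was at 95.8, 50.3 and 47.5 CPM against 22.7, 17.9 and 19.4 CPM (1.59, SE 0.17), and hexokinase 2, HK2, at 93.0, 51.5 and 52.3 CPM against 27.0, 29.2 and 28.5 CPM (1.13, SE 0.13). SLC16A3, which overlaps CSNK1D, was at 16.7, 4.36 and 4.00 CPM against 0.759, 1.22 and 0.837 CPM (2.74, SE 0.50). Replicate 1 was highest for each of these, and replicates 2 and 3 were also above every DMSO library. The median difference of the list from DMSO was 0.77 in replicate 1, 0.27 in replicate 2, and 0.25 in replicate 3. With doxycycline, VEGFA was at 22.1, 17.5 and 17.3 CPM and SLC16A3 at 4.35, 3.71 and 3.94 CPM. The tested members summed to 4496, 4464 and 4440 CPM in shERG-Dox, beside 7942, 7705 and 7398 CPM in DMSO and 12305, 9640 and 9434 CPM in shERG-DMSO.
Without replicate 1 of shERG-DMSO, 20 members passed the test as higher and 2 as lower, 4 were called higher and 1 lower, beside 1.13% and 4.82% of 13393 genes, and the median was 0.26. The log2 fold changes were then 1.40 for VEGFA, 1.31 for P4HA1, 2.15 for SLC16A3, and 0.88 for HK2, which was no longer called. Lactate dehydrogenase LDHA (0.92, and 0.72 without replicate 1) and the glycolytic enzymes ENO1 (0.50), TPI1 (0.39), GAPDH (0.31), and PGK1 (0.30) were higher without being called. Adrenomedullin, ADM, another hypoxia-inducible gene, was lower (-1.74, SE 0.28). EPAS1, which encodes the hypoxia-inducible factor HIF-2 alpha and was added after its values were seen, was at 91.8, 92.2 and 92.6 CPM in DMSO and at 25.7, 23.6 and 28.7 CPM in shERG-DMSO (-1.84, SE 0.07). What set replicate 1 apart was not tested.

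**Figure D3:**
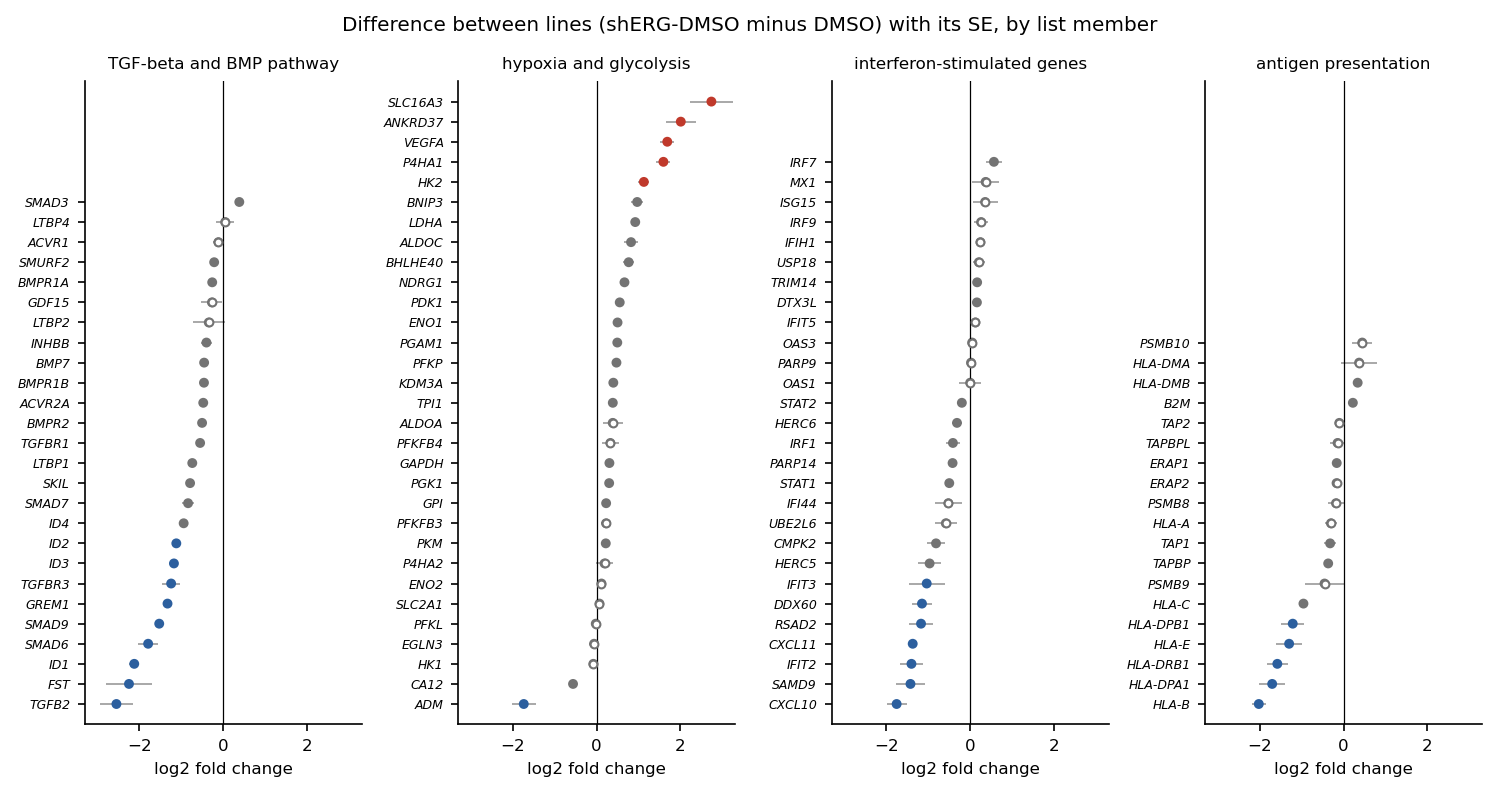
Log2 fold change (shERG-DMSO minus DMSO, 3 against 3) with its SE for the tested members of 4 lists, with blue for called lower, red for called higher, filled grey for other members past an adjusted p of 0.05, and open for the rest. TGF-beta and BMP members lie left of 0 except SMAD3 and LTBP4, whereas interferon-stimulated genes lie on both sides, and those called are all lower.

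Among interferon-stimulated and antigen presentation genes, more were lower than higher. Of 28 tested interferon-stimulated genes, 14 were lower and 3 higher, 7 were called lower and none higher, and the median was -0.36. Among all genes tested, 4.59% were called lower and 1.06% higher. The chemokine CXCL10 was at 5.59, 6.92 and 6.76 CPM in DMSO and at 2.33, 2.09 and 1.41 CPM in shERG-DMSO (log2 fold change -1.75, SE 0.24), and the antiviral genes SAMD9 (-1.42), IFIT2 (-1.40), and RSAD2 (-1.17) were also called. Of 19 antigen presentation genes, 9 were lower and 2 higher, 5 were called lower and none higher, and the median was -0.30. HLA-B, a class I heavy chain, was at 15.6, 14.3 and 13.9 CPM in DMSO and at 3.19, 3.73 and 3.79 CPM in shERG-DMSO (-2.02, SE 0.17, adjusted p = 1.45e-11). The class II gene HLA-DRB1 was at 5.39, 5.70 and 6.52 CPM against 1.32, 1.71 and 3.23 CPM (-1.58, SE 0.25), and HLA-DPA1 (-1.70), HLA-E (-1.30) and HLA-DPB1 (-1.21, and -0.92 without shERG-DMSO replicate 3) were called lower as well. Beta-2 microglobulin, B2M, the shared light chain of class I, was higher (0.22, SE 0.04). HLA genes are polymorphic and similar in sequence, so their counts are uncertain. With doxycycline HLA-B was at 12.5, 12.3 and 13.9 CPM, above every shERG-DMSO library. Of 11 tested NF-kB and inflammatory genes, 5 were lower and 2 higher (median -0.48), with CCL2 called lower (-1.56) and TRAF1 higher (1.28).

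Genes of ribosomes and MYC function were slightly higher, and those of mitosis slightly lower, with differences well under 2-fold. Of 58 cytosolic ribosomal protein genes, 52 were higher and 1 lower (RPL12, -0.09, which did not pass without DMSO replicate 1 or shERG-DMSO replicate 2 or 3, at -0.06, -0.08 and -0.07), none was called, and the median was 0.16. Their share of a library's counts was 6.72% to 6.81% in shERG-DMSO and 5.85% to 6.26% in DMSO. MYC was at 448, 445 and 450 CPM against 351, 373 and 344 CPM (log2 fold change 0.32, SE 0.04). Of 43 members of the MYC network and its targets, 24 were higher and 3 lower, none was called, and the median was 0.29, with the transferrin receptor TFRC (0.92) and the nucleolar protein UTP20 (0.86) among the highest. Of 51 G2/M genes, 36 were lower and 5 higher, none was called, and the median was -0.25, with BIRC5 (-0.53), TPX2 (-0.52), and AURKA (-0.45) lowest of those named here. Of 45 S phase genes, 18 were lower and 7 higher (median -0.09), again with none called. Mitochondrially encoded genes had 8 of 13 lower and none higher (median -0.08), and their share of counts was 8.94% to 9.14% against 9.67% to 10.1%. Of 27 tested replication-dependent histone genes, 9 were lower and 2 higher (median -0.01), of which H2BC11 (-1.52), H2AC6 (-1.39), H3C4 (-1.31), H2BC4 (-1.22), and H2BC21 (-1.11) were called lower and H2BC13 (1.15) higher. H3C4 was not called without replicate 2 of either group (-0.85 for shERG-DMSO and -0.999 for DMSO), H2BC21 not without shERG-DMSO replicate 3 (-0.99), and H2BC13 not without shERG-DMSO replicate 1 (0.98) or DMSO replicate 3 (0.79). These intronless genes resemble each other closely, and their counts may be split between copies.

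**Figure D4:**
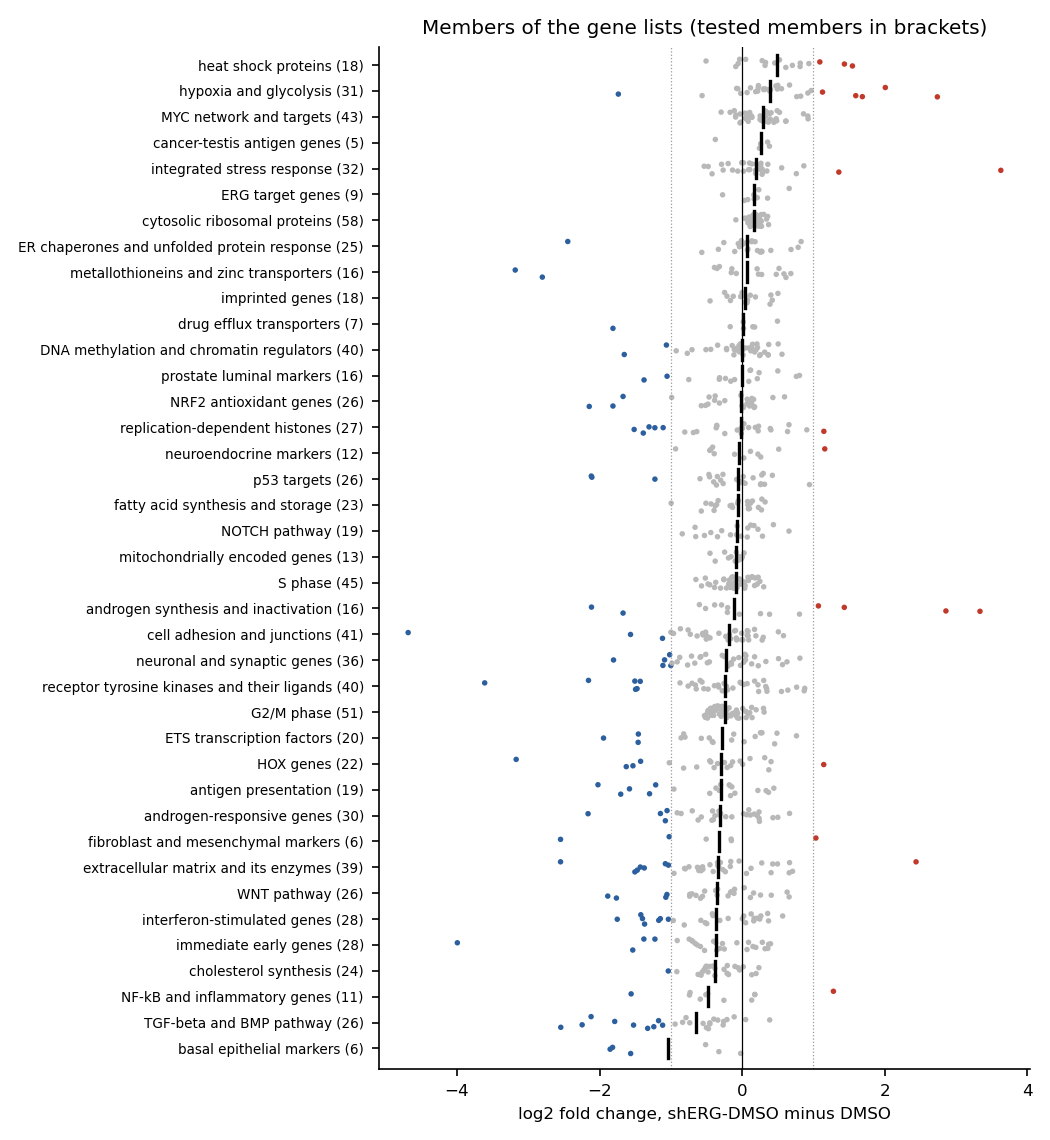
Log2 fold change (shERG-DMSO minus DMSO) of every tested member of the gene lists with at least 5 tested members, with black bars for list medians, colors for called members, and dotted lines at -1 and 1. List medians run from -1.04 for 6 basal epithelial markers to 0.49 for 18 heat shock proteins.

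The cell cycle inhibitor CDKN1A (p21) was one of the clearest losses among regulators of proliferation. It was at 52.7, 49.0 and 46.6 CPM in DMSO and at 12.0, 11.1 and 11.2 CPM in shERG-DMSO (log2 fold change -2.12, SE 0.10, adjusted p = 1.36e-17). It belongs to the p53 target list, of which 10 of 26 tested members were lower and 4 higher (median -0.06). The kinase PLK2 (-2.11, SE 0.12) and the antiproliferative gene BTG2 (-1.22, SE 0.11) were called lower too, MDM2 was lower by 0.59 on the log2 scale, and the death receptor gene FAS was higher (0.42). The immediate early genes and their feedback inhibitors had 14 of 28 lower and 2 higher (median -0.36), with SPRY4, KLF4 (-1.53), DUSP4 (-1.38), and BTG2 called lower.

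Chaperone and stress genes showed gains and cholesterol genes losses. Of 18 heat shock genes, 12 were higher and 1 lower, 3 were called higher, and the median was 0.49. Among all genes tested, 1.06% were called higher and 4.59% lower. HSPA8, the constitutive HSP70, was at 2904, 2862 and 2834 CPM in shERG-DMSO and at 1504, 1502 and 1460 CPM in DMSO (log2 fold change 0.94, SE 0.03). The called genes were the inducible HSP70 genes HSPA1B (1.09) and HSPA1A (1.43), and HSPA1L (1.55, and 0.94 without DMSO replicate 2). All 3 are adjacent paralogs whose reads are hard to separate. The integrated stress response had 14 of 32 genes higher and 4 lower (median 0.19). Its called genes were DDIT4, a stress-induced inhibitor of mTOR signaling at 16.7, 8.91 and 8.57 CPM against 3.66, 4.42 and 4.24 CPM (1.36, and 1.09 without replicate 1), and the glutathione-degrading CHAC1, with 11, 17 and 13 counts against 1, 0 and 2, or 14.9-fold (4.76 to 75.3).
Of 25 endoplasmic reticulum chaperone genes, 10 were higher and 4 lower (median 0.07), with CREB3L1 called lower (-2.45). Cholesterol synthesis had 18 of 24 genes lower and 2 higher, 1 called lower, and a median of -0.38. HMGCS1, the synthase that supplies the pathway, was at 992, 967 and 1043 CPM in DMSO and at 448, 532 and 493 CPM in shERG-DMSO (-1.04, SE 0.04), and was at -0.96 without shERG-DMSO replicate 1 and at -0.999 without DMSO replicate 3. The sterol oxidase MSMO1 (-0.92) and the regulator INSIG1 (-0.62) were lower without being called. Fatty acid synthesis was mixed, with 6 of 23 higher and 8 lower (median -0.06). So were NRF2 antioxidant genes, with 6 of 26 higher and 8 lower (median -0.01), among them GPX2 (-2.14) and the transporter ABCC3 (-1.81). ABCC3 had 5, 2 and 3 counts in shERG-DMSO against 11, 17 and 12 in DMSO. Metallothioneins and zinc transporters were mixed too, with 6 of 16 each way (median 0.06). Of this list, the SLC30 family members SLC30A10 (-3.18) and SLC30A2 (-2.80) were called lower.

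Receptors, matrix, adhesion, and developmental genes were lower more often than higher in these libraries. Of 40 receptor tyrosine kinases, their ligands and binding proteins, 18 were lower and 7 higher (median -0.24), with NTRK2 (-2.16), FGFR3 (-1.51), EPHB6 (-1.50), IGFBP5 (-1.47), and PROS1 (-1.43) called lower beside IGFBP3. Of 39 matrix genes, 21 were lower and 6 higher (median -0.35). TNC was their single called gain, while fibronectin, FN1 (-2.55), COL9A2 (-1.50), thrombospondin 1, THBS1 (-1.47), and LAMC1 were among 7 called lower. FN1 was low throughout, at 3.04, 2.37 and 2.87 CPM in DMSO and at 0.467, 0.443 and 0.422 CPM in shERG-DMSO. With doxycycline FN1 was at 2.99, 3.42 and 2.33 CPM. THBS1 was at 364, 370 and 363 CPM in DMSO and at 128, 128 and 143 CPM in shERG-DMSO. WNT pathway genes had 13 of 26 lower and 3 higher (median -0.35), with WNT5A (-1.89) and TCF7L2 (-1.76) among 4 called lower. NOTCH genes mostly did not pass the test (14 of 19), with 3 lower and 2 higher (median -0.07).
Cell adhesion genes had 19 of 41 lower and 3 higher (median -0.19). Among them CEACAM6, a carcinoembryonic antigen relative, had no count in shERG-DMSO and 10, 14 and 17 in DMSO, at least 12.5-fold higher in the parental cells against a floor of 3 counts over the group. Neuronal and synaptic genes had 17 of 36 lower and 5 higher (median -0.22), with 5 called lower and none called higher. HOX genes had 8 of 22 lower and 3 higher (median -0.30). HOXC9 (-3.17) and HOXC4 (-1.63) were among 4 called lower, and HOXD13 was called higher (1.14, and 0.62 without DMSO replicate 1). HOXC9 had 3, 1 and 3 counts in shERG-DMSO against 18, 29 and 29 in DMSO. ETS transcription factors other than ERG were also mixed. With ERG, 7 of 20 were higher and 10 lower (median -0.28), with ETV7 (-1.94), FEV (-1.46), and ELK3 (-1.46) called lower and ETS2 the highest at 0.76. ETV7 had 6, 2 and 2 counts in shERG-DMSO against 11, 13 and 17 in DMSO. FEV had 4, 8 and 13 against 23, 31 and 19. Chromatin regulators had 15 of 40 higher and 10 lower (median -0.01), of which CHD5 (-1.65) and HMGA2 (-1.06, and -0.83, -0.97 and -0.96 without shERG-DMSO replicate 2 and DMSO replicates 2 and 3) were called lower. Imprinted genes (4 of 18 higher, 1 lower, median 0.04) and cancer-testis genes (1 of 5 each way, median 0.26) had none called. Of 7 drug efflux transporters, 1 was higher and 2 lower (median 0.02), with ABCC3 (-1.81) called lower. Over all genes tested, 23.5% passed the test as higher and 25.0% as lower, and 1.06% were called higher and 4.59% lower.

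Both groups carried the markers expected of luminal prostate cells. The 16 luminal markers were all detected and summed to 11846 to 12107 CPM in shERG-DMSO and 10645 to 10852 CPM in DMSO. Of these, 6 were higher and 8 lower (median -0.01), and GRHL2, an epithelial transcription factor at 427, 411 and 414 CPM in DMSO and at 155, 163 and 167 CPM in shERG-DMSO, was called lower (-1.38, SE 0.04). Basal markers summed to 441 to 462 CPM against 501 to 538 CPM, with 4 of 6 tested lower, among them KRT14 (-1.85) and ITGB4 (-1.82), and TP63 without a count in DMSO. Neuroendocrine markers summed to 349 to 356 CPM against 375 to 390 CPM, with 3 of 12 higher and 5 lower (median -0.04). Fibroblast markers summed to 8.22 to 9.33 CPM against 10.8 to 12.8 CPM, with 1 of 6 tested higher and 2 lower (median -0.33). Leukocyte and endothelial markers summed to 2.25 to 2.88 CPM against 3.39 to 5.20 CPM, with 2 of 3 tested lower (median -1.35), and PTPRC, CD3E, MS4A1, ITGAM and CDH5 had no count in either group. In bulk samples, fewer cells of a kind and less RNA per cell cannot be told apart.

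The treated libraries of the lines gave a second view of the same genes. Of the 139 called higher, 32 (23.0%) were above all 12 parental libraries in all 6 shERG libraries, beside 3.95% of all genes tested. Of the 603 called lower, 160 (26.5%) were below all 12 in all 6, beside 5.68% of all genes tested. With library size scaling alone the numbers were 38 of the 139 and 128 of the 603, and of the 13145 genes tested 860 were above and 484 below, against 519 and 746 with TMM. The 6 libraries of the line comparison are part of the 18, so these shares are a description. In shERG-Dox against parental cells with PBITE-1 for 4 h, groups that share no library with the line comparison but were treated differently, 11.4% of genes were called higher and 12.0% lower. There, of 137 tested genes higher in the untreated shERG line, 51 were called higher and 12 lower, with a median log2 fold change of 0.72, beside 1.29 in the untreated comparison. Of 600 tested genes lower in the untreated line, 259 were called lower and 65 higher, with a median of -0.67 beside -1.46. The sign was kept by 97 and by 407 of them.

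Each of 23 chromosomes held genes called lower and genes called higher, in uneven shares. Those called lower made up 1.94% of the genes tested on chromosome 16 (11 of 568) and 8.37% on chromosome 4 (40 of 478), beside 4.59% of all genes tested. Those called higher made up 0.439% on chromosome 13 (1 of 228) and 1.72% on chromosome 10 (9 of 523), beside 1.06%. These were the lowest and highest shares, which rest on small counts and were not tested. The median log2 fold change of every one of 23 chromosomes was within 0.1 of 0, from -0.08 on chromosome 4 to 0.04 on chromosome 19. Among 289 windows of 10 Mb with at least 10 tested genes, 3 had a median beyond 0.3. They lay on chromosome 7 from 10000001 to 20000000 (median -0.49, 18 genes), which holds AGR2, on chromosome 6 from 70000001 to 80000000 (-0.33, 23 genes), and on chromosome 4 from 60000001 to 70000000 (0.49, 13 genes), where the UGT2B genes lie. Positions are those of GENCODE release 29 on GRCh38, and neighboring genes are not independent.

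**Figure D5:**
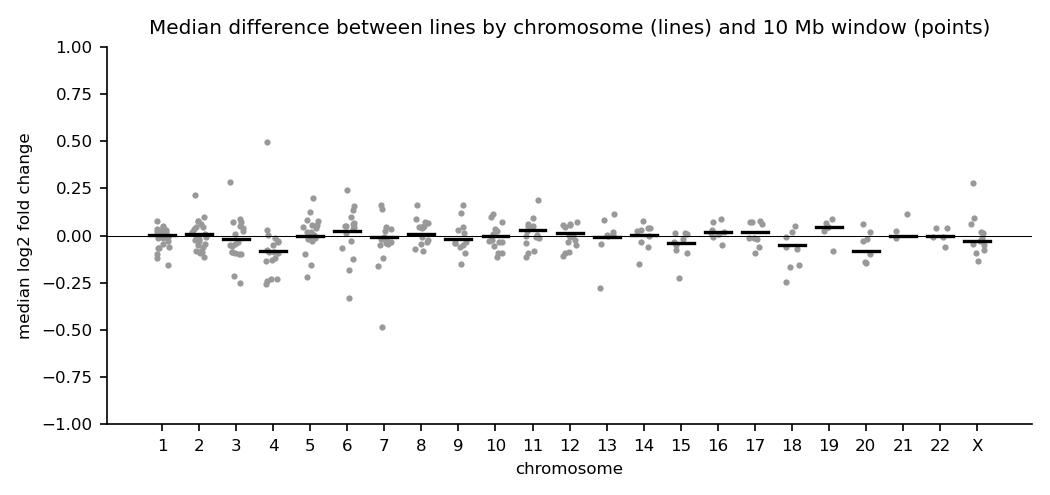
Median log2 fold change (shERG-DMSO minus DMSO) of the tested genes of each chromosome (black bars) and of each 10 Mb window with at least 10 tested genes (grey points). The bars of all 23 chromosomes lie within 0.1 of 0, and 3 of 289 windows lie beyond 0.3.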

How the data were processed

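RNA-seq libraries were prepared from ribosomal RNA-depleted total RNA and sequenced as paired reads. The authors deposited whole-number counts per gene, without normalization, for 22034 genes in 18 samples. The submitters' processing notes name STAR and featureCounts, whereas the paper's methods name Kallisto, so the quantification is uncertain. The annotation release and the strand setting are not given in the sources used here. Of the 22034 genes, 22011 were matched to a symbol by Ensembl identifier and 21921 to a position in GENCODE release 29 on GRCh38.

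Samples were grouped by their labels, and the 3 shERG-DMSO samples were compared with the 3 DMSO samples alone. Genes were kept by filterByExpr (13145, or 59.7%), scaled by TMM in edgeR 4.0.16, and tested by limma-voom (limma 3.58.1, R 4.3.3; functions voom, lmFit, eBayes), two-sided, with Benjamini-Hochberg adjustment over all genes tested. The procedure was tested on simulated data. Levels are CPM scaled over all 18 samples, whereas log2 fold changes come from the fit of 6. Where a group had no count, the fold was bounded against 3 counts over the group. Intervals are exact 95% Clopper-Pearson intervals and, like the floor, cover counting error only.

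The chi-square statistic per degree of freedom between replicates was 1.85 to 3.53, so none was treated as a copy. The 40 gene lists and the members compared were chosen with earlier results of these data known, so lists are described by counts and medians, without a set test. Named genes are ERG and the 10 genes of the ERG target list, the 12 largest called changes each way among protein-coding genes with no overlap between the groups and a mean of at least 50 counts, the 5 most abundant called genes each way, up to 4 of the called members of each list with members that define its roles, and genes at or under 3 counts in one line. Genes beyond 4 called members of a list, EPAS1, and those in the other observations were chosen after their values were seen. Of the genes tested, 78.5% had a promoter in the RefSeq table, so no promoter statistic over gene sets is given. Alternatives were other normalizations (RLE, upper-quartile, library size only), other filters, edgeR's quasi-likelihood test, DESeq2 1.42.0, all 18 samples, a replicate block, sample quality weights, 2 other thresholds, and leaving out each sample. Values of a few genes are not reported here.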

Additional observations from a re-analysis of the deposited data

How the results depend on the processing

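The count of called genes depended mainly on the filter and the threshold. Without a filter on low counts, 249 genes were higher and 978 lower, and with at least 10 counts in every sample 84 and 355. Without a fold limit the counts were 3093 and 3284, and at an adjusted p under 0.01 with a log2 fold change beyond 2 they were 17 and 142. Every other alternative stayed within 1.5 times the reported 139 and 603. These were RLE (140 and 600), upper-quartile (139 and 603) and library size scaling (141 and 598), edgeR (130 and 588), DESeq2 (121 and 548), all 18 samples (168 and 708), and quality weights (136 and 604). Leaving out single samples gave 147 to 166 higher and 611 to 645 lower genes. Same-numbered samples shared no deviation (correlations 0.01, -0.05 and 0.00), and with the number as a replicate block 127 genes were higher and 581 lower. ERG was higher under every alternative run. With library size scaling, 166 called genes separated the lines over 18 samples, against 192. For named genes, 1809 values kept direction and call, 45 lost the call, and CAPN15, not called, changed sign when single samples were left out (-0.10 to 0.12). List medians moved by more than their spread between replicates in 102 of 640 cases. Depth limits the lowest levels, since 3 counts equal 0.179 to 0.233 CPM.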

Other observations

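Secreted products of mucosal and prostatic epithelium recurred among the genes called lower beyond those described above, a grouping made after the values were seen and without a test. MSMB, a major protein of prostatic secretions, had no count in shERG-DMSO and 24, 34 and 19 counts in DMSO, at least 23.5-fold higher in the parental cells against 3 counts over the group. BPIFB1, a secreted protein of airway mucosa, had 4, 3 and 3 counts against 43, 51 and 54, or 13.6-fold (7.17 to 28.9), and S100P had 3, 2 and 1 against 23, 36 and 39, or 15.0-fold (6.63 to 41.8). The trefoil factor TFF1 (log2 fold change -3.40), the protease inhibitor SPINK1 (-2.79), and AGR3 (-3.07) were lower at under 5 CPM in every DMSO library. AGR2, a disulfide isomerase of secretory cells, was at 338, 311 and 325 CPM in DMSO and at 147, 163 and 148 CPM in shERG-DMSO (-1.09, SE 0.04).

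In the shERG-Dox libraries, which share no sample with the parental DMSO group, BPIFB1 was at 3.13, 2.91 and 3.06 CPM, beside 2.97, 3.27 and 3.23 CPM in DMSO and 0.311, 0.190 and 0.211 CPM in shERG-DMSO. MSMB had 1 count over the 3 shERG-Dox libraries. NRAP, a muscle protein, was the only other called gene besides MSMB and CEACAM6 with no count in a whole group, with 21, 12 and 22 counts in DMSO. ANXA1, annexin A1, was at 59.0, 63.7 and 63.9 CPM in DMSO, at 8.63, 9.61 and 10.1 CPM in shERG-DMSO, and at 4.69, 4.44 and 4.81 CPM in shERG-Dox (log2 fold change between the untreated groups -2.72, SE 0.10).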
